A study of Mus musculus with 8 samples.

Results

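Small nucleolar RNAs were taken as the array features whose single gene symbol begins with Snord or Snora, with the feature of highest mean kept where a symbol had several. The rule found 107 genes among 30802 symbols, 72 of them box C/D RNAs (Snord) and 35 box H/ACA RNAs (Snora), from 139 features. The data came from hematopoietic stem cells of elektra mice, homozygous for a loss-of-function mutation of Slfn2 (Slfn2 elektra/elektra), and of wildtype littermates, homozygous for the normal allele. Each genotype had 4 arrays, the mice were untreated and on a C57Bl/6 background, and no age or sex was given. The cells were sorted from c-kit enriched marrow by the gate LSK (no lineage markers, with Sca-1 and c-Kit), CD9hi, CD48- and CD150+. Each sample pooled the bones of 2 mice of one genotype by its own notes, while the design text counts 4 mice in each genotype. If both hold, arrays of a genotype share mice and are not independent, and every SD, SE and p below measures only the spread between arrays. The mutation is carried by every cell of the mouse, so effects within stem cells and effects from surrounding cells cannot be told apart. The comparison asks which transcripts differ between stem cells with and without functional Slfn2.

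Small nucleolar RNAs are short nuclear RNAs that guide chemical modification of other RNAs, above all ribosomal RNA. Box C/D RNAs direct methylation of the ribose by fibrillarin, and box H/ACA RNAs direct conversion of uridine to pseudouridine by dyskerin. A few of either class are needed for cleavage of the ribosomal RNA precursor. In mammals most are cut out of the introns of host genes, many of which encode ribosomal proteins or are noncoding RNAs known chiefly for the small nucleolar RNAs they carry.

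All values are log2 signals, and differences are elektra minus wildtype. Array medians ran from 6.11 to 6.21 in elektra and from 6.12 to 6.26 in wildtype, and interquartile ranges from 2.49 to 2.67 in elektra and from 2.41 to 2.64 in wildtype. Xist, the RNA of the inactive X chromosome, was low on one array of each genotype, with 5.06 for elektra replicate 3 and 5.37 for wildtype replicate 3, and 10.26 to 10.79 on the other arrays. Slfn2 itself was at 8.17, 7.90, 7.79 and 8.08 on elektra replicates 1 to 4, against 7.48, 7.22, 7.53 and 8.41 on wildtype replicates 1 to 4. Its difference of 0.33 did not pass the test (adjusted p = 0.598 in limma), and a signal of this transcript does not check a mutation that alters the protein. All 9 stem cell markers examined, among them Kit, Procr, Mecom and Fgd5, lay above the level filter, with means of 8.85 to 12.10 in elektra and 8.84 to 12.04 in wildtype. Cd48, which the sort excludes, was below it at 6.06 in elektra and 5.93 in wildtype.

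Some properties of the measurement bear on every value below. Feature signals count probe brightness, so a feature inside an intron cannot tell the mature small RNA from the unspliced host transcript. RNA this short can be lost on the columns used for extraction, and its recovery was not measured. In sorted bulk cells, fewer cells that hold a transcript and less of it per cell cannot be told apart.

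The RefSeq annotation of GRCm38.p6 held 105 of the 107 genes, all but Snord107 and Snord116. Of these, 75 lay within a protein-coding gene and 27 within a long noncoding RNA gene. Snord89, Snord13 and Snord118 lay in none. Ribosomal protein genes held 32 of them, and Gas5 or a gene of the Snhg (small nucleolar RNA host gene) series held 17. Annotated lengths had a median of 68 nt for box C/D RNAs and 120 nt for box H/ACA RNAs.

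Many host genes belong to the class whose transcripts begin with an unbroken run of pyrimidines, the 5′ terminal oligopyrimidine motif known from ribosomal protein messages. The RefSeq start windows of 4 noncoding host genes are shown because their small nucleolar RNAs were among those of smallest p. For Snhg6, host of Snord87, which met the same condition, no window was found. Each runs from 20 bases before the annotated start to 50 bases after it, on the strand of the gene in GRCm38.p6, and capitals mark the unbroken run of C and T from the annotated first base on.
2410006H16Rik, host of Snord49a, chr11:62602857-62602926, plus strand: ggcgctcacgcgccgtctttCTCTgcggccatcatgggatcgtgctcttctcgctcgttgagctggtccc
Snhg1, host of Snord22, chr19:8723467-8723536, plus strand: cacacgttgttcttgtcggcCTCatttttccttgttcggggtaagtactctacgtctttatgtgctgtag
Snhg7, host of Snora17, chr2:26640195-26640264, minus strand: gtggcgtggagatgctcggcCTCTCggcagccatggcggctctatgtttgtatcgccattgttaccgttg
Zfas1, host of Snord12, chr2:167062914-167062983, plus strand: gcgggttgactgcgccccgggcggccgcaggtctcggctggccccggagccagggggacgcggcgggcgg
The run is 5 bases long in Snhg7, 4 in 2410006H16Rik and 3 in Snhg1, and the annotated first base of Zfas1 is no pyrimidine. Windows were found for 62 of 76 genes that hold a small nucleolar RNA of the array. A run of 5 or more bases was present in 10 of their 67 windows (14.9%), against 1457 of 32851 windows (4.44%) in the whole table. The annotated start need not be the start used in stem cells.

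Of the 107 small nucleolar RNAs, 82 passed the filter on low signals, a mean of at least 6.17, and were tested among 15710 genes. They comprised 54 of 72 box C/D and 28 of 35 box H/ACA RNAs. The members nearest the filter were Snora35 at 6.204, Snora16a at 6.35 and Snord35b at 6.53 inside it, and Snora81 at 6.02, Snora74a at 6.01 and Snord118 at 5.94 outside it. None of the 82 passed an adjusted p of 0.05 in limma, against 6 of all genes (0.0382%), and the smallest adjusted p was 0.309, for Snord14e. At an unadjusted p under 0.05 stood 11 members (13.4%), against 11.0% of all genes tested, a share near the background. Of the 11, 7 had the higher mean in elektra and 4 the lower, where all genes gave 7.02% higher and 3.95% lower. With each array centred on its median the split was 10 higher and 2 lower. Centring adds the same amount to every gene's difference, so all genes move with it. The split of all genes in that fit is not given here, and nothing particular to these RNAs is read from it.

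Box C/D RNAs leaned to higher signals in elektra, with 36 higher means and 18 lower means and a median difference of 0.15 (quartiles -0.069 and 0.44). Box H/ACA RNAs had 17 higher and 11 lower means and a median of 0.10 (quartiles -0.027 and 0.27). The box C/D median was 0.064 without wildtype replicate 4 and -0.032 without wildtype replicates 2 and 4, and the box H/ACA median was 0.015 with a stricter filter, at the upper quartile of the feature means. Over all genes tested the median was 0.012, and 53.1% of means were higher in elektra. The classes differed more in their range than in their middle. Box C/D differences ran from -0.85 to 0.96, and 13 of 54 were at least 0.5 in size, whereas box H/ACA differences ran from -0.28 to 0.50, with 1 of 28 that large. The standard error of a difference was likewise wide, with medians of 0.21 for box C/D and 0.18 for box H/ACA RNAs. The difference between the classes was not tested.

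**Figure D1:**
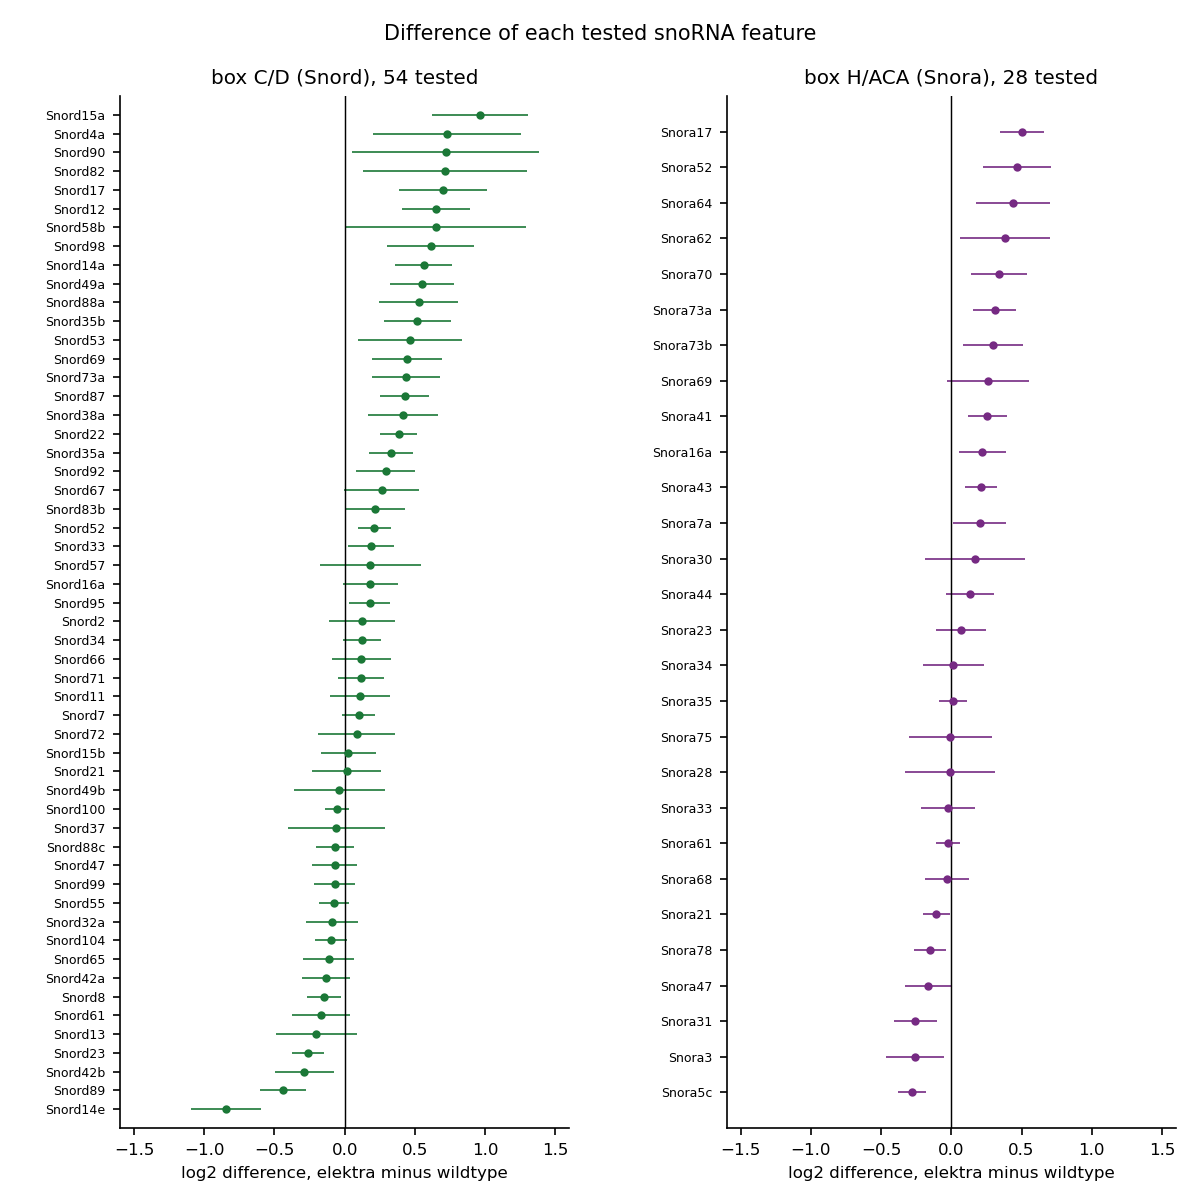
Difference of each tested small nucleolar RNA, elektra minus wildtype in log2, with box C/D and box H/ACA RNAs apart. Box C/D RNAs spread from -0.85 to 0.96 and box H/ACA RNAs from -0.28 to 0.50, and most lie above 0.

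Replicate arrays of one genotype disagreed more for these RNAs than for most genes. The median SD was 0.28 in elektra and 0.36 in wildtype for box C/D RNAs, and 0.27 in elektra and 0.30 in wildtype for box H/ACA RNAs, where all genes had 0.15 in elektra and 0.17 in wildtype. MicroRNA features, also short, had 0.24 in elektra and 0.25 in wildtype, and the host genes had 0.10 in elektra and 0.12 in wildtype. The genotypes did not overlap for Snord22, where all elektra arrays were above the wildtype ones, and for Snora5c, where they were below. Those are 2 of 82 members, against 6.26% of all genes, of which 3.9% had elektra above and 2.37% elektra below.

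Snord14e and Snord14a are copies of U14, a box C/D RNA that guides methylation of 18S ribosomal RNA and, in yeast, is needed for release of 18S from its precursor. Snord14e, in an intron of the heat shock cognate gene Hspa8, had signals of 10.75, 10.997, 11.94 and 10.96 on elektra replicates 1 to 4, against 11.90, 12.34, 12.19 and 11.61 on wildtype replicates 1 to 4. All but elektra replicate 3 lay below every wildtype array. Means were 11.16 ± 0.53 in elektra and 12.01 ± 0.33 in wildtype (SD, n = 4 each), a difference of -0.85 (SE 0.25, adjusted p = 0.309 in limma), or 1.80-fold lower in elektra.

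Snord14a, in the ribosomal protein gene Rps13, stood the other way. Its signals were 9.28, 8.63, 8.83 and 8.76 in elektra, against 8.31, 8.31, 8.82 and 7.82 in wildtype, with wildtype replicate 3 inside the elektra range. The means were 8.88 ± 0.28 in elektra and 8.31 ± 0.41 in wildtype (SD, n = 4 each), with a difference of 0.56 (SE 0.20, adjusted p = 0.369 in limma). The difference between the changes of the 2 copies was 1.41 (exact two-sided permutation p = 0.0286, the smallest that 70 relabellings allow). After adjustment over 7 pairs this p was 0.20. The pair was chosen after its values were seen and arrays may share mice, so no conclusion on opposite changes is drawn from this p. The host genes differed less, by 0.092 for Hspa8 and 0.016 for Rps13.

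Snord22, or U22, is known in Xenopus to be required for 18S ribosomal RNA maturation, and it lies in Snhg1, a noncoding host whose introns carry a cluster of box C/D RNAs. It was at 9.28, 9.06, 8.99 and 8.84 in elektra, against 8.80, 8.35, 8.77 and 8.70 in wildtype, so the lowest elektra array was just above the highest wildtype array. Means of 9.04 ± 0.18 in elektra and 8.65 ± 0.21 in wildtype (SD, n = 4 each) gave a difference of 0.39 (SE 0.13, adjusted p = 0.359 in limma). Snhg1 itself had a difference of 0.32 (adjusted p = 0.387 in limma). No other RNA of the Snhg1 introns was among the members.

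Snord15a and Snord15b are copies of U15, a methylation guide for 28S ribosomal RNA, in introns of Rps3. Snord15a had the largest difference of the 82. Its signals were 7.82, 6.77, 7.88 and 7.17 in elektra, against 7.48, 6.19, 5.94 and 6.18 in wildtype, and wildtype replicate 1 alone of its group lay among the elektra arrays. The means were 7.41 ± 0.53 in elektra and 6.45 ± 0.70 in wildtype (SD, n = 4 each), 1.95-fold higher in elektra, with a difference of 0.96 (SE 0.34, adjusted p = 0.363 in limma). Leaving out each array in turn moved this difference between 0.79 and 1.31. Snord15b differed by 0.027 and Rps3 by 0.13.

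Of the box C/D RNAs in noncoding hosts, Snord12 in Zfas1, Snord49a in 2410006H16Rik and Snord87 in Snhg6 had higher means in elektra. Snord12 was at 8.21, 7.97, 7.68 and 8.23 in elektra, against 7.89, 6.94, 7.81 and 6.84 in wildtype, where replicates 2 and 4 were about 1 log2 unit below the other pair. Snord49a was at 8.11, 8.73, 9.16 and 8.20 in elektra, against 8.36, 7.83, 8.07 and 7.72 in wildtype. Snord87 was at 9.57, 9.34, 9.46 and 8.94 in elektra, against 8.52, 8.89, 9.29 and 8.90 in wildtype. Every one of these pairs of groups overlapped. The differences were 0.65 for Snord12 (SE 0.24, adjusted p = 0.381 in limma), 0.55 for Snord49a (SE 0.23, adjusted p = 0.412) and 0.43 for Snord87 (SE 0.18, adjusted p = 0.414). The hosts themselves were near 0, at -0.0073 for Zfas1, -0.0063 for 2410006H16Rik and -0.056 for Snhg6.

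Snord89 and Snord23 had lower means in elektra. Snord89, which lies in no annotated host, was at 9.43, 9.94, 9.85 and 10.23 in elektra, against 10.24, 10.49, 10.06 and 10.43 in wildtype. Only elektra replicate 4 reached into the wildtype range, and the difference was -0.44 (SE 0.16, adjusted p = 0.380 in limma). Snord23, in the ribosome biogenesis gene Nop53, was at 9.43, 9.59, 9.57 and 9.56 in elektra, against 9.57, 9.99, 9.98 and 9.65 in wildtype. Only elektra replicate 2 was above the lowest wildtype array, and the difference was -0.26 (SE 0.12, adjusted p = 0.450 in limma).

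Among box H/ACA RNAs, Snora17 and Snora5c had the smallest p. Snora17, in the noncoding host Snhg7, was at 8.83, 8.25, 8.35 and 8.62 in elektra, against 8.34, 7.84, 7.83 and 8.05 in wildtype. Only wildtype replicate 1 reached into the elektra range. Means were 8.52 ± 0.26 in elektra and 8.01 ± 0.24 in wildtype (SD, n = 4 each), a difference of 0.50 (SE 0.15, adjusted p = 0.328 in limma), or 1.42-fold higher in elektra. Snora5c, in the mitochondrial RNA regulator gene Tbrg4, was at 9.002, 8.72, 8.64 and 8.88 in elektra, against 9.05, 9.06, 9.08 and 9.18 in wildtype. All elektra arrays were below the wildtype ones, by a narrow margin, with a difference of -0.28 (SE 0.10, adjusted p = 0.371 in limma).

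**Figure D2:**
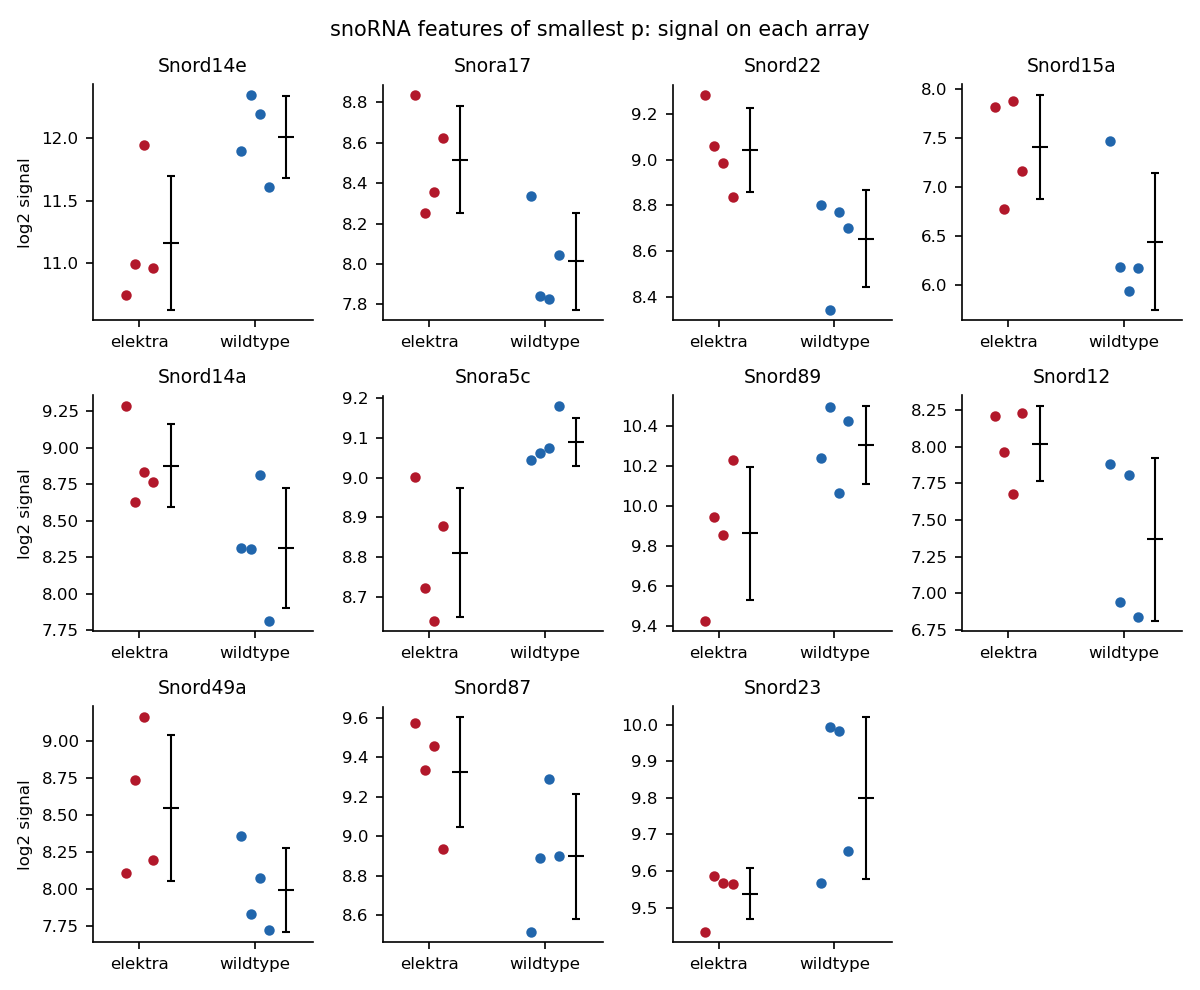
Log2 signal on each array of the 11 small nucleolar RNAs at an unadjusted p under 0.05, with elektra to the left of wildtype. The genotypes are apart for Snord22 and Snora5c and overlap for the others.

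The remaining RNAs known for ribosomal RNA cleavage or maturation gave no larger differences. Snora73a and Snora73b, copies of U17, whose yeast counterpart is needed for 18S processing, lie together in Snhg3. Snora73a differed by 0.31 (SE 0.15, adjusted p = 0.480 in limma) and Snora73b by 0.30, while Snhg3 itself differed by 0.30. Snord13, or U13, which takes part in acetylation of 18S ribosomal RNA, was at 8.14, 8.44, 8.95 and 8.77 in elektra, against 9.11, 8.13, 9.50 and 8.37 in wildtype, a difference of -0.20. Its sign turned to 0.041 without wildtype replicate 3. Snord118, or U8, needed in Xenopus for maturation of 28S and 5.8S ribosomal RNA, was below the level filter at 5.83 ± 0.17 in elektra and 6.05 ± 0.11 in wildtype. Snora74a, or U19, was also below it, at 6.02 ± 0.15 in elektra and 5.997 ± 0.37 in wildtype (SD, n = 4 each).

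The RNAs in the introns of Rpl13a, known in mouse and hamster cells as mediators of lipid-induced oxidative stress, did not share a direction. Snord35a had the largest difference, 0.33 (SE 0.16, adjusted p = 0.469 in limma), with signals of 8.98, 8.51, 8.46 and 8.36 in elektra, against 8.48, 8.14, 8.39 and 7.98 in wildtype. Snord33 differed by 0.19 and Snord34 by 0.12, whereas Snord32a differed by -0.088 and turned to 0.062 without wildtype replicate 4. Snord47, the member held by Gas5, a noncoding host known for its accumulation in growth-arrested cells, differed by -0.07, and Gas5 itself by 0.17.

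Snord116, Snord64 and Snord107 belong to the imprinted Prader-Willi region, whose small nucleolar RNAs are known from brain. All were below the level filter and overlapped between genotypes. Snord116 was at 4.87 ± 0.37 in elektra and 4.95 ± 0.25 in wildtype, Snord64 at 2.54 ± 0.18 in elektra and 2.53 ± 0.12 in wildtype, and Snord107 at 2.71 ± 0.68 in elektra and 2.63 ± 0.14 in wildtype (SD, n = 4 each). The 31 features named Snord116 held only 2 distinct sets of values.

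The next box C/D RNAs by p, none of them at an unadjusted p under 0.05, were Snord17, held by Snx5, at 0.70 (SE 0.32, adjusted p = 0.456 in limma) and Snord35b at 0.52 (adjusted p = 0.459) on the higher side. On the lower side they were Snord42b, held by Rpl23a, at -0.29 (adjusted p = 0.627 in limma) and Snord8 at -0.15 (adjusted p = 0.675). The box H/ACA RNAs next in order were Snora52 at 0.46, Snora70 at 0.34, Snora41 at 0.26 and Snora43 at 0.21 on the higher side, and Snora3 at -0.26, Snora31 at -0.26, Snora47 at -0.16, Snora78 at -0.15 and Snora21 at -0.11 on the lower. Among RNAs of highest signal, Snord65 differed by -0.11, Snord100 by -0.054, Snora23 by 0.069 and Snora34 by 0.015, next to Snord34 and Snord47 above. The brightest features of either class thus lay near 0, apart from Snord14e and Snora31.

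Some of the widest differences lay in RNAs whose wildtype arrays were far apart, named here after their values were seen. Snord90, held by Rc3h2, was at 6.82, 7.11, 6.23 and 7.86 in elektra, against 6.84, 7.07, 7.35 and 3.89 in wildtype, a difference of 0.72 (SE 0.66, adjusted p = 0.704 in limma). Snord58b, held by Rpl17, was at 7.80, 8.31, 7.63 and 8.26 in elektra, against 8.32, 7.44, 8.67 and 4.97 in wildtype, a difference of 0.65. In both RNAs wildtype replicate 4 lay more than 2 log2 units below every other array, and without that array the difference was -0.081 for Snord90 and -0.15 for Snord58b. Snord4a, held by Rpl23a, was at 9.11, 8.98, 9.17 and 8.37 in elektra, against 9.53, 6.81, 9.09 and 7.28 in wildtype, where replicates 2 and 4 were low. Snord82, held by the nucleolin gene, was at 7.09, 6.31, 6.82 and 7.48 in elektra, against 6.50, 5.19, 8.15 and 5.01 in wildtype, where replicate 3 was the highest of all arrays and replicates 2 and 4 the lowest. Snord98, held by Ccar1, was at 7.79, 7.08, 7.65 and 7.26 in elektra, against 7.76, 7.07, 6.31 and 6.22 in wildtype, a difference of 0.61 (SE 0.31, adjusted p = 0.492 in limma). Snord17 had the same shape, at 8.56, 8.11, 7.995 and 8.34 in elektra, against 8.44, 7.90, 7.18 and 6.68 in wildtype, with wildtype replicates 3 and 4 low as in Snord98.

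The 25 members below the filter split evenly. Of the 18 box C/D RNAs, 10 had higher and 8 lower means in elektra, and of the 7 box H/ACA RNAs, 3 had higher and 4 lower. In a fit without the filter, 3 of the 25 were at an unadjusted p under 0.05, against 8.72% of the 30802 genes of that fit, and none passed the adjusted threshold. They were Snord110 at 0.88, Snora2b at 0.55 and Snord43 at -0.41, named after their values were seen. Snord110 was at 6.32, 6.41, 5.87 and 5.96 in elektra, against 5.12, 4.94, 6.10 and 4.87 in wildtype, where replicate 3 lay among the elektra arrays. By the authors' deposited table, p-values under 0.05 belonged to 5 of 107 members (4.67%), against 8.18% of all 33793 features, namely Snora17, Snora5c, Snord110, Snord14e and Snord22.

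Related copies were set against each other in 7 pairs whose names differ by a letter, chosen after the values were seen. Next to the U14 pair, the first copy exceeded the second in its difference by 0.94 for Snord15a and Snord15b (exact two-sided permutation p = 0.0857), by 0.60 for Snord88a and Snord88c (p = 0.114) and by 0.59 for Snord49a and Snord49b (p = 0.114), each 0.20 after adjustment. Snord35a less Snord35b gave -0.19 (exact permutation p = 0.429), Snord42a less Snord42b 0.15 (p = 0.629) and Snora73a less Snora73b 0.011 (p = 0.914). No pair passed after adjustment. With 70 relabellings the smallest possible p was 0.0286, so over 7 pairs none could pass unless several stood at that floor. The adjusted test therefore cannot decide for a single pair.

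The box C/D differences moved with single wildtype arrays. Of the 54 box C/D RNAs, 17, 30, 17 and 24 lay below their own 8-array mean on elektra replicates 1 to 4, against 21, 32, 23 and 39 on wildtype replicates 1 to 4. Wildtype replicate 4 stood lowest, with a median deviation of -0.30 from those means. Of the 28 box H/ACA RNAs, 11, 17, 11 and 11 lay below on elektra replicates 1 to 4, against 18, 18, 13 and 14 on wildtype replicates 1 to 4, without such an array. Over all genes the share below was between 46.4% and 53.5% on each array. Without wildtype replicates 2 and 4, a choice made after the values were seen, 26 means of box C/D RNAs were higher and 28 lower. The part of RNA recovery on single arrays in this was not tested.

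**Figure D3:**
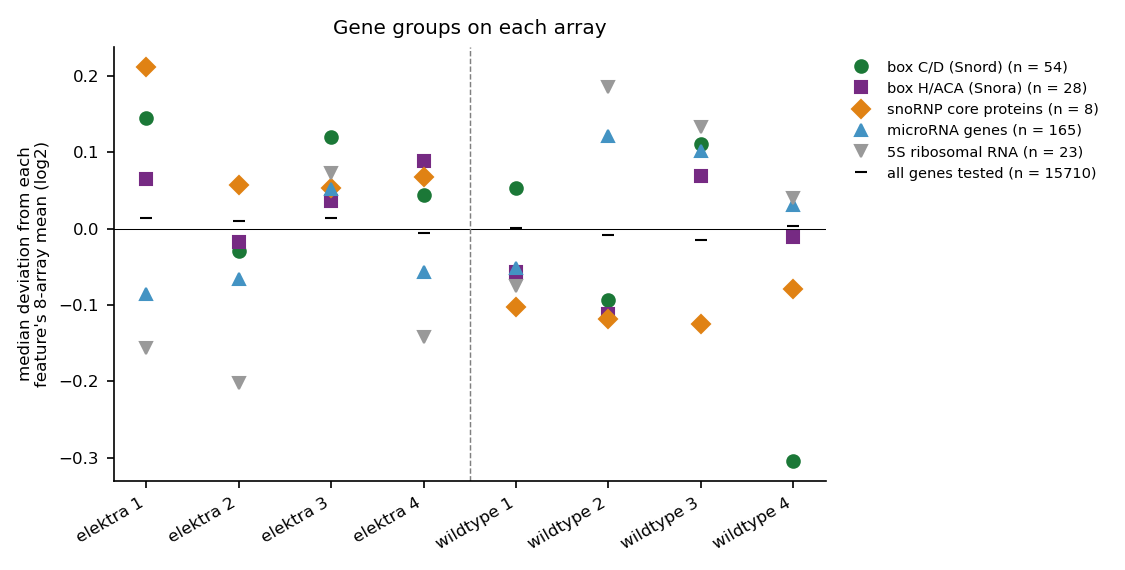
Median deviation from each gene's own 8-array mean, in log2, on each array, for box C/D RNAs, box H/ACA RNAs and the other gene groups. Box C/D RNAs on wildtype replicate 4 lie lowest of their class, at -0.30.

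The transcripts of 8 core proteins that bind small nucleolar RNAs all had higher means in elektra, though none passed the adjusted threshold in limma. At an unadjusted p under 0.05 stood 3 of 8, all on the higher side, against 7.02% of all genes. Levels of the proteins were not measured. Among the box C/D proteins, Nop58, a scaffold of the particle, was at 10.18, 9.90, 10.004 and 10.04 in elektra, against 9.80, 9.65, 9.58 and 9.56 in wildtype. Its groups did not overlap, with a difference of 0.38 (SE 0.098, adjusted p = 0.263 in limma). Its partner Nop56 had means of 10.47 ± 0.083 in elektra and 10.23 ± 0.053 in wildtype (SD, n = 4 each) and a difference of 0.24 (SE 0.086, adjusted p = 0.363 in limma). The methyltransferase fibrillarin (Fbl) differed by 0.15 and Nhp2l1, which binds the RNA first, by 0.12.

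Among the box H/ACA proteins, Nhp2 differed by 0.25 (adjusted p = 0.363 in limma), Gar1 by 0.39 (SE 0.19, adjusted p = 0.476), the pseudouridine synthase Dkc1 by 0.18 (adjusted p = 0.480) and Nop10 by 0.18. Dkc1 was at 9.68, 9.45, 9.45 and 9.49 in elektra, against 9.31, 9.36, 9.32 and 9.36 in wildtype. The lowest elektra array exceeded the highest wildtype array for Nop58, Nop56, Nhp2 and Dkc1, 4 of 8 genes, against 3.9% of all genes. The median difference over the 8 was 0.21.

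**Figure D4:**
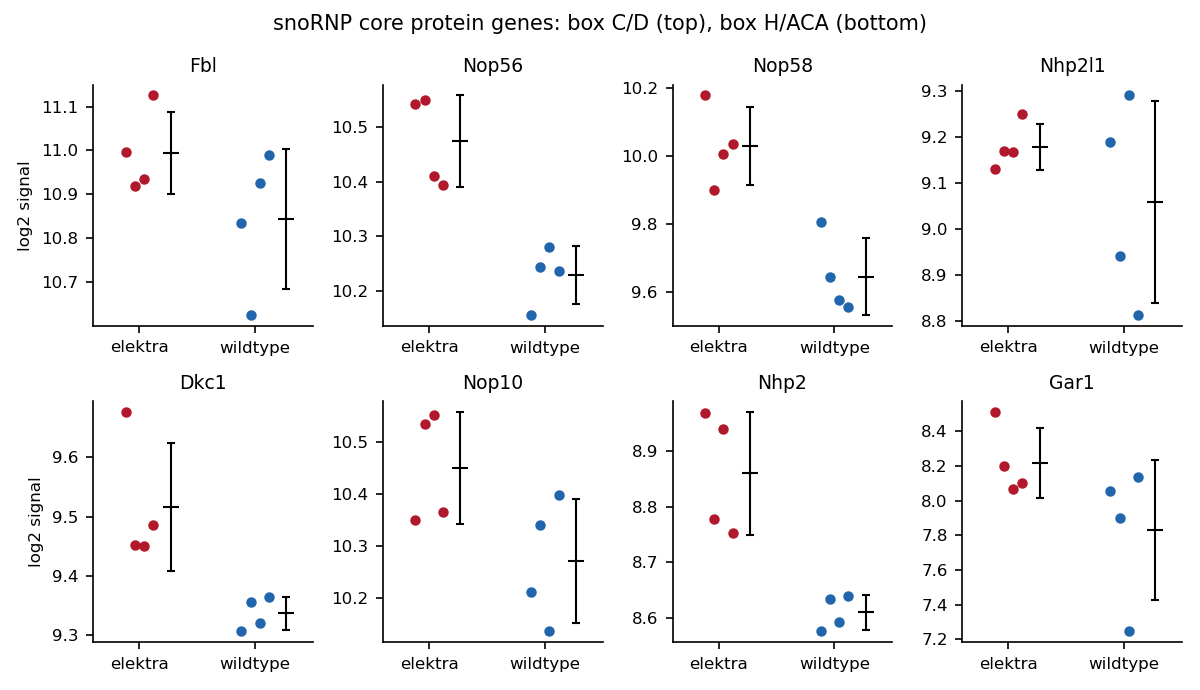
Log2 signal on each array of the transcripts of 8 core proteins of small nucleolar particles, with elektra to the left of wildtype. All 8 means are higher in elektra, and the arrays are apart for Nop58, Nop56, Nhp2 and Dkc1.

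Transcripts of factors that assemble, move or trim the particles leaned the same way. Of 30 tested, 22 had higher and 8 lower means, an unadjusted p under 0.05 was reached by 7 on the higher side and 0 on the lower (23.3%, against 11.0% of all genes), none passed after adjustment, and the median was 0.096. Exosc3, a subunit of the RNA exosome, had a difference of 0.49 (SE 0.097, adjusted p = 0.155 in limma). Znhit6, an assembly factor of box C/D particles, had a difference of 0.41 (SE 0.11, adjusted p = 0.273 in limma), and Shq1, an assembly factor of box H/ACA particles, a difference of 0.55 (SE 0.17, adjusted p = 0.324 in limma). Mphosph10, a protein of the U3 particle, differed by 0.41, the assembly ATPase Ruvbl2 by 0.30, nucleolin (Ncl) by 0.23 and the exonuclease Xrn2 by 0.21. On the lower side Znhit3 differed by -0.13, Phax by -0.08 and Imp3 by -0.062.

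Host genes were closer to 0 by their median. Of a list of 60 host genes, 55 were measured and 50 tested, with 31 higher and 19 lower means, 6 of the higher and 3 of the lower at an unadjusted p under 0.05 (18.0%, against 11.0% of all genes), none past the adjusted threshold in limma, and a median of 0.041. With arrays centred on their medians the split of means was 38 higher and 12 lower. That step adds the same amount to the difference of every gene, so the shift is not particular to host genes. The list shares Nop56 and Dkc1 with the core proteins and Ncl with the factors above. Snhg4, the host of Snora74a, was at 9.39, 9.03, 8.89 and 8.90 in elektra, against 8.45, 8.31, 8.48 and 8.56 in wildtype, with a difference of 0.60 (SE 0.12, adjusted p = 0.167 in limma). Meg3, an imprinted noncoding RNA whose neighbourhood carries box C/D clusters, was at 6.58, 7.12, 6.57 and 6.58 in elektra, against 7.24, 7.67, 7.71 and 7.53 in wildtype, with a difference of -0.83 (SE 0.15, adjusted p = 0.119 in limma). Snrpn, an imprinted splicing-factor gene at the head of the Prader-Willi transcript, differed by -0.28, Rpl21 by -0.19 and the chaperonin gene Cct6a by 0.38.

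Each member was also set beside its own host. In 64 pairs with both genes tested, over 51 hosts, 29 had both means higher in elektra, 16 both lower, 11 the RNA higher and the host lower, and 8 the RNA lower and the host higher. Across the pairs Pearson's r of the differences was 0.23 and Spearman's rho 0.32, a description of pairs that share hosts and arrays. Members ranged wider than hosts, with a median size of difference of 0.22 against 0.11. Their arrays also disagreed more. The median SD of hosts was 0.10 in elektra and 0.12 in wildtype, against 0.28 and 0.36 for box C/D and 0.27 and 0.30 for box H/ACA RNAs. The part of this spread in the wider range was not tested. Among 51 hosts, all elektra arrays lay above the wildtype ones in 7 and below in 1, against 3.9% and 2.37% of all genes. Nop58 and Nop56 are among the 7 and were already counted with the core proteins. Of 12 host genes that held 2 or more tested members, 30 members in all, the members shared a direction in 5 and not in 7. Within Rpl23a the differences ran from -0.29 to 0.73, within nucleolin from -0.0069 to 0.71 and within Snhg7 from 0.21 to 0.50.

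**Figure D5:**
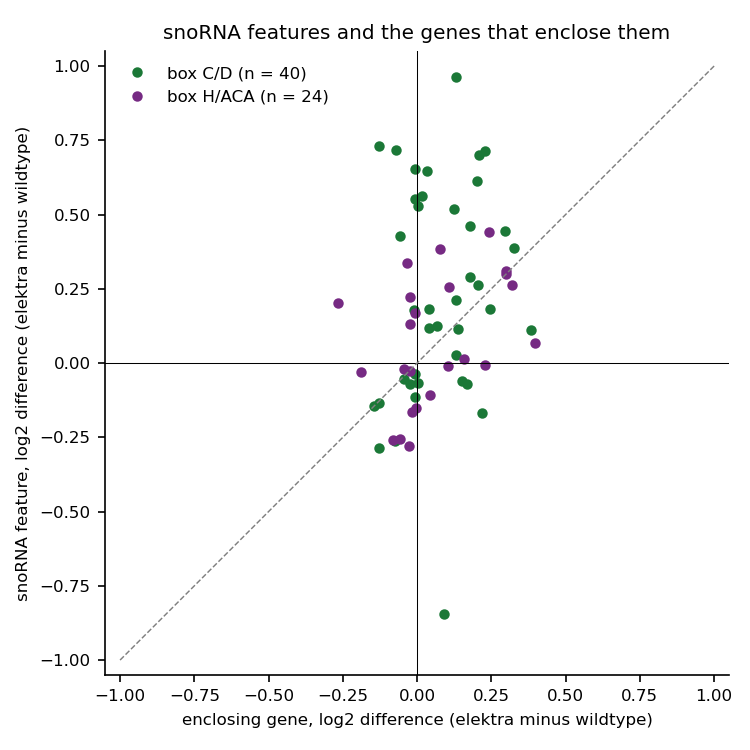
Difference of each small nucleolar RNA against that of the gene that holds it, both elektra minus wildtype in log2. The RNAs run from -0.85 to 0.96 and their hosts from -0.27 to 0.40.

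By the kind of host, the 59 tested members within protein-coding genes had a median of 0.17. At an unadjusted p under 0.05 stood 2 of their higher and 3 of their lower means, a smaller share than the 11.0% of all genes. The 21 within noncoding genes had a median of 0.13, with 5 of the higher and 0 of the lower at that p (23.8%, against 11.0% of all genes). Where several genes held a member, the smallest span decided its kind, and the kinds were not tested against each other. The 30 within ribosomal protein genes had 21 higher and 9 lower means and a median of 0.19. By annotated length, medians were 0.12 for 30 members up to 70 nt, 0.057 for 22 members of 71 to 100 nt and 0.19 for 30 longer ones, without an order by length. Box C/D RNAs made up 29, 21 and 4 of these, so length and class largely coincide here.

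Other small RNA features lay on the other side of 0. MicroRNA genes had 52 higher and 113 lower means among 165 tested and a median of -0.10, and 5S ribosomal RNA features had 5 higher and 18 lower means and a median of -0.18. Over all 206 such features, 63 means were higher and 143 lower, 10 of the higher and 20 of the lower stood at an unadjusted p under 0.05 (14.6%, against 11.0% of all genes), none passed the adjusted threshold in limma, and the median was -0.11. With the spread of each array as a covariate that median was -0.016, and the box C/D median was 0.10. Of markers listed for other blood cells, all 3 megakaryocyte markers were above the filter. Pf4 differed by 0.61, Itga2b by 0.39 and Gp9 by 0.014. Summed signals of the 3 were 27.23 to 27.55 in elektra, against 26.16 to 26.56 in wildtype. Whether the stem cells themselves or other cells held these transcripts was not measured. Also above the filter were 2 of 6 granulocyte, 2 of 4 monocyte and macrophage and 1 of 3 erythroid markers. Of B cell markers 1 of 5 was above it, and of T and NK cell markers 0 of 5. The summed signals of each of these other lists overlapped between genotypes. The part of any of these markers in the differences of small nucleolar RNAs was not tested.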

How the data were processed

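Total RNA of sorted stem cells, about 200 pg per sample, was amplified with 12 cycles of PCR and measured on 8 Affymetrix whole-transcript arrays, per the labels' protocols. The sources used here give neither the array design nor the annotation release. Log2 signals were made by the authors with RMA in Affymetrix Expression Console 1.4, per the submitters' processing notes. The deposited workbook also holds the authors' unadjusted p-value for each of 33793 features. A deposited series table of RMA log2 signals served as an alternative.

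Features with 1 gene symbol (32074) and a mean of at least 6.17, the median over features, were fitted, with the feature of highest mean kept per symbol, which left 15710 genes. The difference, elektra minus wildtype, was tested two-sided with limma 3.58.1 (lmFit, eBayes; R 4.3.3), with Benjamini-Hochberg adjustment over the 15710 genes and a threshold of 0.05. The procedure was tested on simulated data. Pairs of lettered copies were compared with exact permutation tests in Python 3.11.15. Precision is limited by the number of arrays, and whether arrays share a litter is in no label.

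Hosts were the RefSeq genes of GRCm38.p6 whose span holds the member, taken without regard to strand, with the smallest span where 8 members had several. The members and lists were chosen with earlier results of these data known. Named members were those of smallest p in each direction (up to 8 box C/D and 6 box H/ACA), the 5 and 3 of highest mean, those known for ribosomal RNA cleavage or imprinted loci, and those held by Gas5, Snhg1 and Rpl13a. All core proteins, the 3 of smallest p on either side of each other list, the hosts of named members and Slfn2 were named too. Some of these are not reported here.

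Alternatives were 2 other filters, 2 normalizations, another variance model, weights for arrays, averaging a gene's features, the series table, array spread as a covariate, the replicate number as a block, each array left out in turn and both arrays of low Xist left out. Leaving out wildtype replicates 2 and 4 was added after the values were seen.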

Additional observations from a re-analysis of the deposited data

Results flagged for a closer look

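In 106 groups of 4 arrays, over 53 named genes, 6 groups held an array whose gap to the nearest other array exceeded Dixon's critical share of the group's range, where chance flags about 1 in 20. Snord15a on wildtype replicate 1 was at 7.48, with the other wildtype arrays at 5.94 to 6.19. On elektra replicate 1, Snord23 was at 9.43, with the other elektra arrays at 9.56 to 9.59, and Dkc1 at 9.68, with the others at 9.45 to 9.49. On elektra replicate 4, Snora41 was at 7.47, with the others at 7.66 to 7.69, and Snord107, which is below the level filter, at 3.72, with the others at 2.25 to 2.49. Snora23 on elektra replicate 3 was at 10.24, with the others at 10.49 to 10.54.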

How the results depend on the processing

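No small nucleolar RNA passed the adjusted threshold in limma under any of the 20 alternatives. The count at an unadjusted p under 0.05, 11 of 82, lay between 7 (without wildtype replicate 4) and 18 (without wildtype replicate 1) when single arrays were left out, and was 3 with array spread as a covariate. The share of all genes in these fits is not given here and can change too. These counts alone therefore measure no change particular to the members. With the replicate number as a block the count was 23 (28.0%, against 11.8% of all genes), with 18 higher and 5 lower. The labels tie no samples by number, and the numbers were not treated as pairs: correlations of same-numbered arrays were 0.14, 0.024, 0.13 and -0.0017, and 2 of 4 correlated best with their own number. Xist was nonetheless low on replicate 3 of both genotypes, so a shared source is not settled. The box C/D median of 0.15 lay between 0.064 and 0.20 with single arrays left out and was -0.032 without wildtype replicates 2 and 4. The box H/ACA median of 0.10 was 0.026 without a filter, 0.015 with the stricter filter, and 0.20 without both arrays of low Xist. The filter alternatives change which members are counted, and for the others the cause was not tested. The median of assembly factors was 0.035 with array spread as a covariate, that of host genes 0.089 with arrays centred, and that of other small RNAs -0.016 with array spread as a covariate. Centring shifts the differences of all genes alike. Core protein transcripts kept medians between 0.17 and 0.27 throughout. Of 39 named members, 30 kept their sign in every alternative. Many of the 39 were named for a small p in these same data, so the count is no independent measure of stability. Leaving out single arrays gave -0.11 to 0.20 for Snora23, -0.13 to 0.15 for Snora34, -0.17 to 0.0064 for Snord104, -0.42 to 0.041 for Snord13, -0.23 to 0.062 for Snord32a, -0.28 to 0.029 for Snord42a, -0.16 to 0.076 for Snord47 and -0.26 to 0.025 for Snord65. Without both arrays of low Xist, Snora23 was -0.044, Snora34 -0.098 and Snord47 0.016. Snora34 was also -0.036 under quantile normalization and -0.0051 with array weights. Without wildtype replicates 2 and 4, Snord104 was 0.042 and Snord32a 0.13, and with array spread as a covariate Snord8 was 0.037.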

Other observations

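Structured RNAs outside the small nucleolar rule gave values in both directions, and none of the 18 tested passed the adjusted threshold in limma, although 2 on the higher and 2 on the lower side stood at an unadjusted p under 0.05 (22.2%, against 11.0% of all genes). Rnu11, the U11 RNA of the minor spliceosome, was at 9.57, 9.58, 9.87 and 9.73 on elektra replicates 1 to 4, against 10.03, 9.97, 10.33 and 10.02 on wildtype replicates 1 to 4. All elektra arrays lay below all wildtype arrays, with a difference of -0.40 (SE 0.11, adjusted p = 0.301 in limma). Scarna3a, a Cajal body RNA related to box H/ACA RNAs, also had the lower mean in elektra, with a difference of -0.32 (SE 0.13, adjusted p = 0.402 in limma). Scarna13, another Cajal body RNA, was at 7.93, 8.22, 7.74 and 8.29 in elektra, against 8.14, 7.17, 7.57 and 6.53 in wildtype, where replicate 4 was lowest as it was for box C/D RNAs, with a difference of 0.69 (SE 0.28, adjusted p = 0.409 in limma). Rny1, a Y RNA bound by the Ro protein, had a difference of 0.48 (SE 0.19, adjusted p = 0.403 in limma).

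Rn7sk, which restrains transcription elongation, differed by 0.0063, Terc, the box H/ACA-like RNA template of telomerase, by -0.09 and Rmrp, the RNA of an endonuclease that cuts the ribosomal RNA precursor, by 0.13. Rnu3b4, a copy of the U3 box C/D RNA that the symbol rule left out, differed by -0.15 (adjusted p = 0.789 in limma).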
